A study of Mus musculus with 24 samples.

Results

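The transcripts of 5 genes are described across 4 tissues of Prxl2a knockout (KO) and wildtype (WT) mice: Ntrk2, Gldn, Camk2b, Carmil1 and Rogdi. They are 5 of the 19015 genes in the deposited table, and were chosen by name because their transcripts changed in KO liver, or changed differently between tissues, in these same libraries. In edgeR's quasi-likelihood test, 4 of the 5 were called in liver (Ntrk2, Gldn, Camk2b and Carmil1), where 1.11% of 12331 tested genes were called. For the difference of the KO change between tissues, 3 of the 5 were called (Gldn, Carmil1 and Rogdi), where 0.421% of 16169 genes were called. Those calls chose the genes, so their KO values are a description, given with an error and with no p-value.

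The groups were KO and WT female mice aged 12 weeks, with 3 libraries of each genotype from each of 4 tissues: brain, liver, the inguinal fat depot (IAT) and dorsal brown fat (BAT). PBS perfusion preceded dissection and freezing. The sources used here do not say how the knockout allele was made or on which strain. The design text gives 3 mice per genotype, so the 4 tissues of a genotype may come from the same mice. Library totals ran from 12327459 to 18257788 counts, and Prxl2a itself stood at 1.98% of its WT mean in KO liver and at 4.19% to 5.54% in the other KO tissues. In bulk tissue, fewer cells of a type and less RNA per cell cannot be told apart.

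Ntrk2 encodes TrkB, the receptor tyrosine kinase that binds brain-derived neurotrophic factor. Camk2b encodes the beta subunit of calcium/calmodulin-dependent protein kinase II, an enzyme that is assembled from alpha, beta, gamma and delta subunits. Gldn encodes gliomedin, a protein with an olfactomedin domain through which Schwann cells gather sodium channels at the nodes of peripheral axons. Carmil1 binds the capping protein that closes the growing ends of actin filaments and loosens its hold, and Rogdi encodes a protein of the rabconnectin complex, which assists assembly of the proton pump V-ATPase. Loss of ROGDI in humans causes Kohlschütter-Tönz syndrome, with epilepsy and defective tooth enamel. The table gives 1 value per gene, so full-length and truncated TrkB, for example, were not separated.

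The genes lie on 4 chromosomes of GRCm38.p6. Ntrk2 (gene 18212) spans chromosome 13, 58806472 to 59133970, and Carmil1 (gene 68732) lies on the same chromosome at 24012481 to 24280802. Gldn (gene 235379) spans chromosome 9, 54286486 to 54341777, Camk2b (gene 12323) chromosome 11, 5969629 to 6066357, and Rogdi (gene 66049) chromosome 16, 5008729 to 5013574. The bases just before the gene start are shown for Ntrk2, Gldn and Rogdi, the 3 genes that were lower in KO liver. The sequences are RefSeq promoter windows on GRCm38.p6, cut where the annotated gene begins, and capitals mark each CG dinucleotide.
Ntrk2, chr13:58806319-58806471, plus strand: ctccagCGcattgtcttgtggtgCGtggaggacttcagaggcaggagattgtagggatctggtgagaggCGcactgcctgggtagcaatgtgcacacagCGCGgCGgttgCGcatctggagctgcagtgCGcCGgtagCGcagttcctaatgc
Gldn, chr9:54286236-54286485, plus strand: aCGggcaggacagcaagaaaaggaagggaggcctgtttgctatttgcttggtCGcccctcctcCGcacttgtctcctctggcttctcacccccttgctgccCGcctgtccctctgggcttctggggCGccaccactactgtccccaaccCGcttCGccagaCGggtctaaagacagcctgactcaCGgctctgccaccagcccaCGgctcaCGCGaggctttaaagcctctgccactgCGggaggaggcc
Rogdi, chr16:5013575-5013803, minus strand: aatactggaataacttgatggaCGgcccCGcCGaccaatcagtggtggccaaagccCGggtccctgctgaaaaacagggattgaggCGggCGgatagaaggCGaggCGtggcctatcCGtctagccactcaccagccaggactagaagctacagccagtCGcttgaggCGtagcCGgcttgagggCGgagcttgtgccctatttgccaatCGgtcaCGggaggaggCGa

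Promoter windows matched 4 of the 5 members by symbol, and Carmil1 is named only. The printed bases held 10 CG dinucleotides for Ntrk2, 13 for Gldn and 16 for Rogdi. The full RefSeq window of 250 bases reaches into the annotated gene for Ntrk2 and Rogdi and lies wholly inside it for Camk2b. Those full windows held 19 CG dinucleotides for Ntrk2, 13 for Gldn, 44 for Camk2b and 20 for Rogdi, where the median of 27025 mouse promoter windows is 6. The motifs searched on both strands of those windows were the antioxidant response element TGACNNNGC (in 10.1% of all promoters), the STAT site TTCNNNGAA (7.18%), the E-box CACGTG (6.05%) and the cyclic AMP element TGACGTCA (1.62%). None of the 4 windows held any of these letters.

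Ntrk2 was the member with the largest measured fall for which counts remained in KO liver. Its level there was 2.68, 1.84 and 2.20 CPM (counts scaled to the library total) in the 3 KO libraries, against 15.8, 9.60 and 5.59 CPM in the 3 WT libraries. The highest KO library lay below the lowest WT library, and the WT libraries spread widely, with an SD of 5.13 CPM around a mean of 10.3 CPM, against 0.420 CPM around 2.24 CPM in KO. The log2 fold change of KO over WT was -2.20 (SE 0.36, n = 3 per group). Ntrk2 counts in liver were low relative to the other tissues, with 118 counts over the 3 KO libraries and 555 over the 3 WT libraries. Its liver call was lost without WT replicate 2, or without any 1 KO library, where the log2 fold change ran from -2.49 to -1.76 over all libraries left out in turn.

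Outside liver the KO and WT values of Ntrk2 overlapped. In brain they were 728, 640 and 778 CPM in KO and 754, 602 and 678 CPM in WT, a log2 fold change of 0.08 (SE 0.12). In BAT they were 177, 230 and 213 CPM in KO and 231, 188 and 201 CPM in WT, a log2 fold change of 0.00 (SE 0.12). In these tissues the group means differed by less than 1 SD of either group. In IAT the log2 fold change was -0.02 (SE 0.45), and over the alternatives given below it ran from -0.57 to 0.69. The KO libraries there stood at 107, 414 and 243 CPM, against 255, 236 and 284 CPM in WT. The lowest and the highest IAT values of the gene were thus both KO libraries. A list of 8 adipocyte markers followed the same order in those 3 libraries, with sums of 8176, 15182 and 24859 CPM in KO replicates 1, 3 and 2, against 14844 to 18275 CPM in WT, and its part in the Ntrk2 values was not tested.

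Gldn was not detected in KO liver. Its counts were 0, 0 and 0 in the KO libraries, against 11, 19 and 10 in the WT libraries. The groups did not overlap, and the gene entered the test through its WT libraries alone. Against a floor of 3 counts over the 3 KO libraries together, it was at least 13.03-fold lower in KO, a limit that covers counting error only. Its liver call was lost when any 1 of the 6 libraries was left out. The WT mean was itself low, at 0.733 CPM (SD 0.216, n = 3).

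In BAT, Gldn lay on the other side. It stood at 6.17, 3.74 and 3.61 CPM in KO, against 2.90, 2.66 and 1.96 CPM in WT, a log2 fold change of 0.84 (SE 0.29). Every KO BAT library was above every WT BAT library, with KO replicate 1 well above the rest. In IAT the values were 1.98, 1.58 and 1.44 CPM in KO and 1.11, 3.41 and 2.33 CPM in WT (log2 fold change -0.46, SE 0.44), and in brain 1.06, 0.880 and 1.13 CPM in KO and 1.15, 0.884 and 1.51 CPM in WT (log2 fold change -0.21, SE 0.31). The groups overlapped in both tissues.

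Camk2b was higher in KO liver. It stood at 14.9, 17.5 and 15.03 CPM in KO, against 3.87, 7.28 and 4.77 CPM in WT. The lowest KO library was above the highest WT library by a margin larger than the SD of either group (1.44 CPM in KO and 1.76 CPM in WT). The log2 fold change was 1.57 (SE 0.21), which is 2.96-fold. In brain, where the gene was most abundant, the values were 930, 893 and 796 CPM in KO and 926, 857 and 863 CPM in WT, a log2 fold change of -0.01 (SE 0.10).

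In BAT, Camk2b was 23.7, 25.3 and 19.5 CPM in KO, against 12.7, 15.6 and 18.3 CPM in WT, and the groups did not overlap (log2 fold change 0.56, SE 0.16). In IAT it was 12.2, 2.65 and 6.87 CPM in KO, against 2.03, 4.56 and 1.62 CPM in WT (log2 fold change 1.40, SE 0.64). KO replicates 1 and 3 were the high libraries in IAT, and KO replicate 2 lay inside the WT range. A list of 8 lymphocyte markers, among them Cd3e, summed to 1429 and 729 CPM in IAT KO replicates 1 and 3, against 6.18 CPM in KO replicate 2 and 13.6 to 19.4 CPM in WT. Without KO replicates 1 and 3, a choice made after seeing the data that leaves 1 KO library assumed to vary like the WT ones, the Camk2b value in IAT was -0.04. Over all alternatives, that one included, the value ran from -0.04 to 2.10.

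Carmil1 was likewise higher in KO liver, at 12.9, 14.1 and 16.4 CPM in KO, against 6.30, 4.75 and 6.23 CPM in WT. All KO libraries were above all WT libraries, and the log2 fold change was 1.33 (SE 0.15), which is 2.52-fold. In brain the values were 32.9, 30.5 and 35.4 CPM in KO and 31.2, 24.6 and 25.4 CPM in WT (log2 fold change 0.28, SE 0.12). In BAT they were 5.51, 4.06 and 4.84 CPM in KO and 6.42, 4.38 and 5.87 CPM in WT (log2 fold change -0.21, SE 0.22). The groups overlapped in both tissues. In IAT they overlapped too, at 16.8, 15.5 and 14.1 CPM in KO and 12.3, 12.6 and 15.5 CPM in WT (log2 fold change 0.20, SE 0.17). Skeletal muscle markers summed to 1031 and 3737 CPM in WT IAT replicates 1 and 2, against 5.86 CPM in WT replicate 3 and 5.89 to 42.2 CPM in KO. Without those WT libraries together, a choice made after seeing the data, the Carmil1 value was -0.05. That choice leaves 1 WT library, the one with the highest WT value of Carmil1. Over all alternatives, that one included, the value ran from -0.05 to 0.31.

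Rogdi had its largest difference in IAT, not in liver. In IAT it stood at 47.8, 28.0 and 36.4 CPM in KO, against 19.5, 18.1 and 15.5 CPM in WT, a log2 fold change of 1.08 (SE 0.23). Each KO library was above each WT library, and KO replicates 1 and 3, the libraries rich in lymphocyte markers, were the highest. Without those libraries the value was 0.67, from the 1 KO library left, and over all alternatives it ran from 0.67 to 1.24. The part of lymphocyte transcripts in the Rogdi difference was not tested. In liver Rogdi was lower in KO by a small margin, at 9.63, 9.42 and 9.72 CPM in KO, against 10.9, 11.8 and 12.8 CPM in WT (log2 fold change -0.30, SE 0.11). The KO liver libraries were tightly grouped and lay below all WT libraries.

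In BAT Rogdi was 34.4, 28.1 and 29.8 CPM in KO and 26.2, 30.7 and 29.3 CPM in WT (log2 fold change 0.10, SE 0.11). In brain it was 73.9, 76.7 and 73.0 CPM in KO and 78.8, 74.9 and 101 CPM in WT (log2 fold change -0.19, SE 0.12). The groups overlapped in both, and WT replicate 3 was the high brain library. Choroid plexus markers summed to 531 CPM in that library, against 9.68 to 147 CPM in the other brain libraries. Striatum markers summed to 367, 1009 and 383 CPM in KO brain and 1410, 1274 and 464 CPM in WT brain. The part of these brain regions in the brain values of the members was not tested. The genotypes were fully separated for 5 of the 5 genes in liver (21.6% of all tested genes there), 2 in BAT (25.6%), 1 in IAT (18.5%) and 0 in brain (12.5%). By edgeR, which called 0.0487% of genes in brain, 0.54% in BAT and 0% in IAT (2226 of 14097 at an unadjusted p under 0.05 in IAT, with 987 called by DESeq2 and 7 by limma-voom), none of the 5 was called in those tissues. These contrasts chose the members, so nothing is read from those counts. In IAT edgeR did not call even Prxl2a (log2 fold change -4.58, SE 0.41, edgeR adjusted p = 0.0912). A gene not called there may still have changed.

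**Figure D1:**
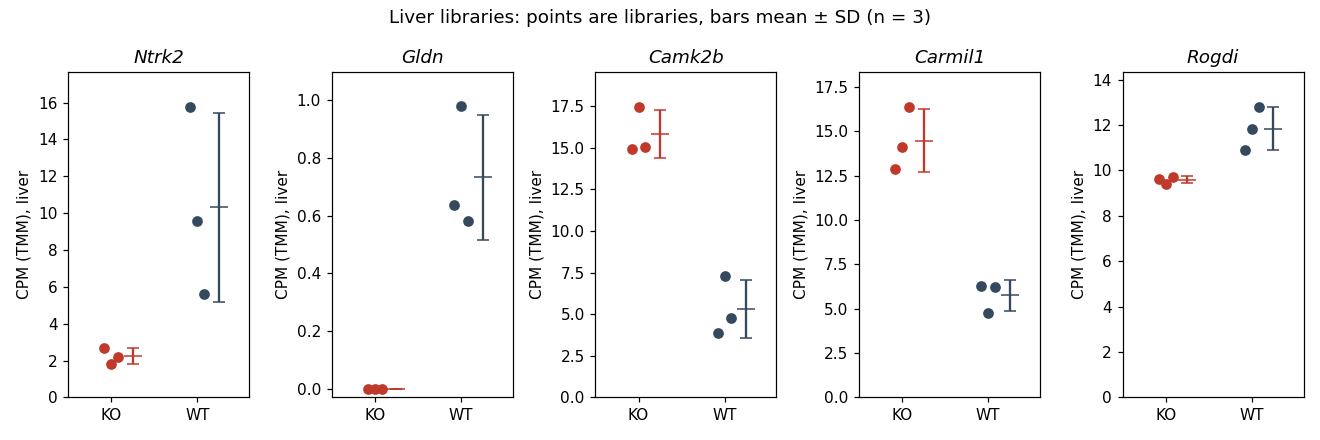
Liver level of each member per library, in CPM on a linear axis, with KO left of WT. Points are libraries and bars the mean ± SD of 3; Gldn is at 0 in the 3 KO libraries, and in every panel the KO points lie wholly above or wholly below the WT points.

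**Figure D2:**
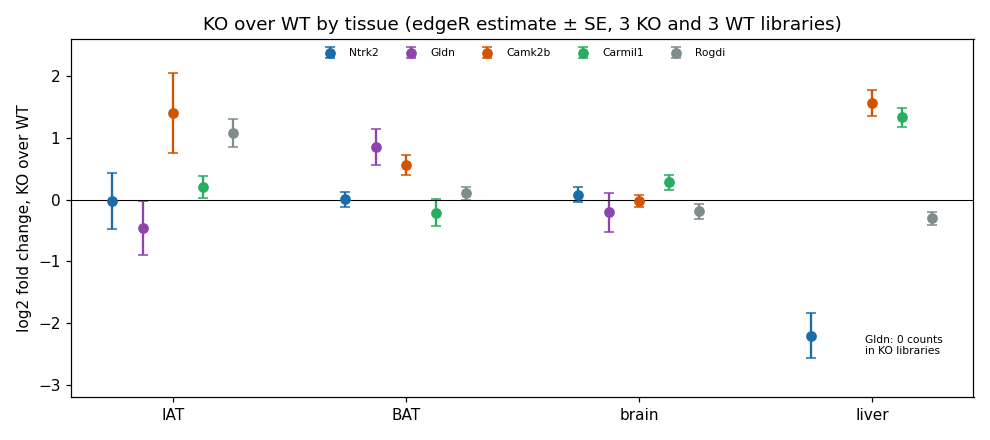
Log2 fold change of KO over WT for each member in each tissue, as the edgeR estimate ± SE from 3 KO and 3 WT libraries. The brain values lie between -0.21 and 0.28, while the liver values run from -2.20 for Ntrk2 to 1.57 for Camk2b; Gldn has no liver point because its KO counts are 0.

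The levels across tissues show a shared feature for 4 of the members. In TPM, the authors' unit that allows for transcript length, Ntrk2, Camk2b, Carmil1 and Rogdi were highest in brain in both genotypes. The Gldn mean was highest in BAT, but its WT BAT and WT IAT libraries overlapped. Ntrk2 stood at 213 TPM in KO brain (SD 23.2, n = 3) and at 207 TPM in WT brain (SD 29.5). IAT followed, at 54.9 TPM in KO (SD 29.7) and 53.9 TPM in WT (SD 4.37), then BAT at 37.3 TPM in KO (SD 3.94) and 40.4 TPM in WT (SD 5.08). Liver was far lower, at 0.423 TPM in KO (SD 0.0709) and 2.08 TPM in WT (SD 0.991), so both genotypes held little Ntrk2 there. The IAT and BAT libraries of KO mice overlapped in TPM.

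Camk2b was 530 TPM in KO brain (SD 41.3) and 537 TPM in WT brain (SD 33.2), while the next tissue, BAT, stood at 7.36 TPM in KO (SD 1.08) and 5.36 TPM in WT (SD 0.987). Liver followed at 5.32 TPM in KO (SD 0.520) and 1.94 TPM in WT (SD 0.730), and IAT at 2.87 TPM in KO (SD 1.95) and 1.003 TPM in WT (SD 0.617). The WT liver and WT IAT libraries overlapped, whereas the KO liver libraries lay above the KO IAT libraries.

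Carmil1 was 15.3 TPM in KO brain (SD 1.29) and 12.6 TPM in WT brain (SD 1.86), and 4.82 TPM in KO IAT (SD 0.574) and 3.94 TPM in WT IAT (SD 0.501). WT liver, at 1.65 TPM (SD 0.217), overlapped WT BAT, at 1.54 TPM (SD 0.313). KO liver, at 3.91 TPM (SD 0.486), stood above KO BAT, at 1.24 TPM (SD 0.211), and just below KO IAT without overlap. Rogdi was 164 TPM in KO brain (SD 4.98) and 183 TPM in WT brain (SD 32.0), and lowest in liver, at 11.7 TPM in KO (SD 0.250) and 15.6 TPM in WT (SD 1.79). Its second tissue was IAT in KO, at 52.8 TPM (SD 16.96), overlapping KO BAT at 35.9 TPM (SD 4.63), and it was BAT in WT, at 36.2 TPM (SD 2.72), above WT IAT at 23.6 TPM (SD 2.72).

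Gldn was low everywhere. It averaged 1.31 TPM in KO BAT (SD 0.454) and 0.777 TPM in WT BAT (SD 0.153), 0.587 TPM in KO IAT (SD 0.124) and 0.753 TPM in WT IAT (SD 0.390), and 0.540 TPM in KO brain (SD 0.0721) and 0.630 TPM in WT brain (SD 0.175). In WT, BAT, IAT and brain overlapped their neighbours in that order, and liver, at 0.237 TPM (SD 0.0723), lay below brain. In KO, BAT was above IAT without overlap, and IAT and brain overlapped.

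**Figure D3:**
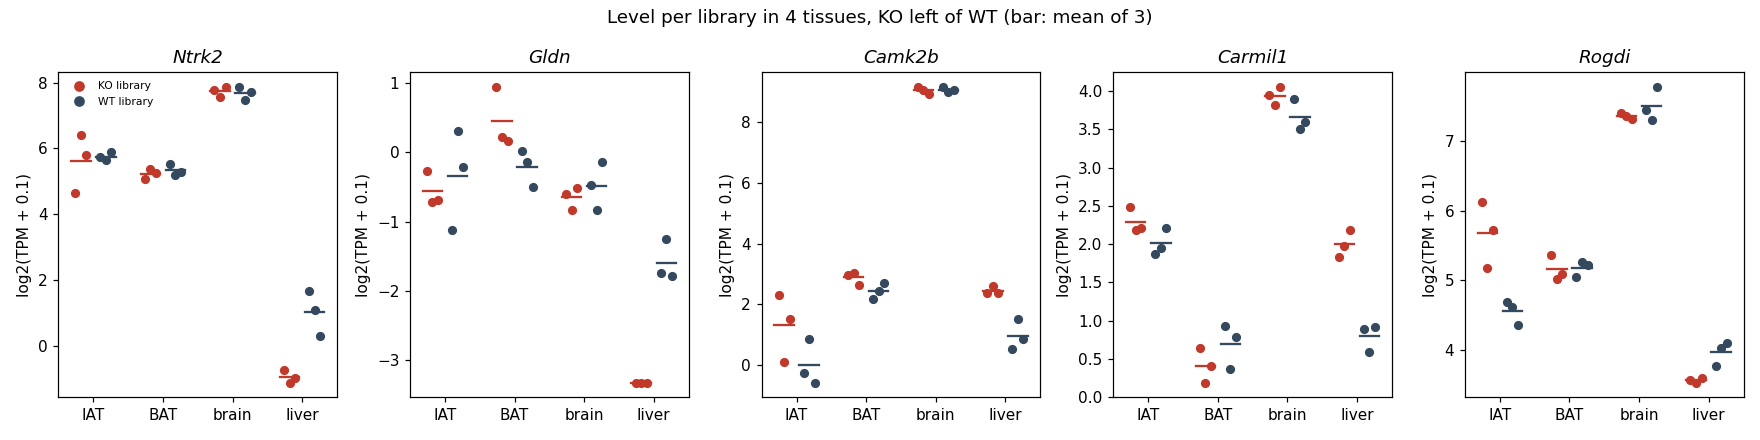
Level of each member in every library, as log2(TPM + 0.1), by tissue, with KO left of WT and a bar at the mean of 3 libraries. Ntrk2, Camk2b, Carmil1 and Rogdi are highest in the brain libraries of both genotypes. The Gldn mean is highest in BAT, but its WT BAT and WT IAT libraries overlap. Each panel has its own axis range.

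The tissue differences among WT libraries were tested for Ntrk2 and Camk2b, which the difference of the KO change between tissues did not call. Liver was left out, because its WT libraries entered the comparison that chose both genes. Camk2b was higher in WT brain than in WT BAT by 5.42 on the log2 CPM scale (SE 0.33, edgeR adjusted p = 3.06e-08) and than in WT IAT by 8.25 (SE 0.39, edgeR adjusted p = 4.40e-09). It was also higher in WT BAT than in WT IAT, by 2.84 (SE 0.33, edgeR adjusted p = 3.88e-05). Every library followed these orders. Ntrk2 was higher in WT brain than in WT IAT by 1.33 (SE 0.26, edgeR adjusted p = 0.000613) and than in WT BAT by 1.303 (SE 0.26, edgeR adjusted p = 0.000712). Its log2 difference of 0.02 between WT BAT and WT IAT (SE 0.26, edgeR adjusted p = 0.965) did not pass. The TPM levels given above are scaled otherwise and differ in size from these CPM values. In TPM, Ntrk2 in WT brain was 3.83-fold its level in WT IAT. WT IAT in turn was 1.33-fold WT BAT, without overlap. The source of this disagreement was not tested.

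Gldn, Carmil1 and Rogdi were chosen with a fit that holds the same WT libraries, so their WT tissue differences are a description. For Rogdi the log2 difference was 2.20 (SE 0.13) for WT brain over WT IAT, 1.15 (SE 0.13) for WT brain over WT BAT and 1.04 (SE 0.13) for WT BAT over WT IAT. For Carmil1 it was 0.94 (SE 0.18), 1.87 (SE 0.19) and -0.93 (SE 0.19) for the same pairs. The libraries of each pair did not overlap for either gene. For Gldn it was -1.01 (SE 0.41) for WT brain over WT IAT, -1.49 (SE 0.41) for WT brain over WT BAT and 0.47 (SE 0.40) for WT BAT over WT IAT. In CPM, only WT brain and WT BAT did not overlap for Gldn. The TPM sizes differ here too. Rogdi in WT brain was 5.07-fold its WT BAT level in TPM, and Gldn averaged 0.630 TPM in WT brain and 0.777 TPM in WT BAT. Tissue differences were common: 80% of 15810 genes were called for WT brain over WT IAT, 79.2% for WT brain over WT BAT and 57% for WT BAT over WT IAT.

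The counts behind each TPM unit scale with the transcript length that the quantification assigned to the gene. For Ntrk2 this ratio, scaled over 4666 well-covered genes, was 0.905 of the WT brain value in WT IAT, 0.911 in WT BAT and 0.909 in WT liver, and 0.913 in KO liver. The ratio was thus highest in brain, and in liver it differed between KO and WT by less than the spread between libraries. For Carmil1 and Rogdi the ratio stayed between 0.980 and 1.02 of the WT brain value in all groups.

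The related genes around each member were read from 6 lists of 123 genes, of which 90 passed the filter in liver. edgeR called 0 of the 90 in KO liver, with 8 higher and 9 lower at an unadjusted p under 0.05, where 1988 of all 12331 tested genes had such a p; limma-voom called 0 and DESeq2 called 2, Ank3 and Myo1e. The median log2 fold change of the 90 was -0.01 and that of all 12331 tested genes -0.00448. In the other tissues edgeR also called 0 of these genes, of 111 tested in IAT, 97 in BAT and 121 in brain, with 20, 16 and 4 at an unadjusted p under 0.05. Over all genes such a p was found for 2226 of 14097 in IAT, 2330 of 12588 in BAT and 946 of 14385 in brain. DESeq2 called 9 in IAT, 2 in BAT and 0 in brain, and limma-voom called 0 in each. Because edgeR did not call Prxl2a itself in IAT, its count of 0 there does not show unchanged genes.

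Among 21 neurotrophin genes tested in liver, 11 were higher and 10 lower in KO, with a median of 0.01. The smallest unadjusted p-values were those of the neurotrophin receptor gene Ngfr, at 0.608 CPM in KO and 1.62 CPM in WT (log2 fold change -1.42, SE 0.41, edgeR adjusted p = 0.140), and of Sort1, encoding the sorting receptor sortilin, at 7.22 CPM in KO and 11.5 CPM in WT (-0.68, SE 0.20, edgeR adjusted p = 0.143). Neither passed. The ligand gene Bdnf was at 0.533 TPM in KO liver (SD 0.0850, n = 3) and 0.490 TPM in WT liver (SD 0.114), and the sister receptor Ntrk3 at 0.0433 TPM in KO and 0.0600 TPM in WT. In BAT, by contrast, Ntrk3 stood at 122 TPM in KO (SD 54.1) and 162 TPM in WT (SD 14.4), above Ntrk2 in TPM.

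Of 16 tested genes for calmodulin, its kinases and their inhibitors, 6 were higher and 10 lower in KO liver, with a median of -0.05. Camk1d, a calmodulin-dependent kinase gene, was at 33.9 CPM in KO and 66.8 CPM in WT (log2 fold change -0.98, SE 0.27, edgeR adjusted p = 0.131), and did not pass. Within the 4 subunit genes of the kinase, Camk2b made up 54.0% of their summed TPM in KO liver (SD 4.42, n = 3) and 28.8% in WT liver (SD 4.60). Camk2d was at 2.11 TPM in KO liver and 2.33 TPM in WT liver, Camk2g at 2.41 TPM in KO and 2.31 TPM in WT, and Camk2a at 0.0133 TPM in KO and 0.0200 TPM in WT. In brain Camk2a led, with 65.8% of the summed TPM in KO (SD 4.66) and 63.5% in WT (SD 1.27), and Camk2b made up 22.7% in KO (SD 3.89) and 24.5% in WT (SD 1.99).

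For gliomedin, the olfactomedin family had 6 genes tested in liver, with 0 higher and 6 lower in KO and a median of -0.50. The lowest p was that of Olfml3, a secreted olfactomedin-like protein gene, at 2.36 CPM in KO and 4.45 CPM in WT (log2 fold change -0.92, SE 0.30, edgeR adjusted p = 0.181), and Olfml1 followed at 7.71 CPM in KO and 10.9 CPM in WT (-0.50, SE 0.19, edgeR adjusted p = 0.253). Neither passed. Of 15 nodal partner genes only 4 passed the filter, and Ank3, encoding the scaffold ankyrin-G, was at 6.70 CPM in KO and 14.01 CPM in WT (-1.06, SE 0.26, edgeR adjusted p = 0.0979), followed by Ank2 at 0.722 CPM in KO and 1.10 CPM in WT (-0.60, SE 0.31, edgeR adjusted p = 0.389). The axonal partners of gliomedin were near 0 in liver, with Nrcam at 0.00667 TPM in KO and 0.00333 TPM in WT and Nfasc at 0.0467 TPM in KO and 0.0367 TPM in WT, against 131 TPM in KO brain and 125 TPM in WT brain for Nrcam.

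For Carmil1, 21 genes of its family, of capping protein and of actin nucleation were tested in liver, with 9 higher and 12 lower in KO and a median of -0.01. Myo1e, a class I myosin gene that CARMIL proteins bind, was at 72.2 CPM in KO and 50.2 CPM in WT (log2 fold change 0.53, SE 0.11, edgeR adjusted p = 0.0678), and Cfl1, encoding the actin-severing protein cofilin, at 131 CPM in KO and 113 CPM in WT (0.21, SE 0.09, edgeR adjusted p = 0.309). Neither passed. The paralogues were sparse in liver, with Carmil2 at 0.167 TPM in KO and 0.197 TPM in WT. In IAT, Carmil2, which T cells use, averaged 18.9 TPM in KO (SD 18.8) and 0.463 TPM in WT (SD 0.0404). The KO libraries ran from 0.25 to 37.9 TPM, and the part of lymphocyte transcripts in that spread was not tested.

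For Rogdi, 22 genes of the rabconnectin complex and the V-ATPase were tested in liver, with 17 higher and 5 lower in KO and a median of 0.11. Atp6v1d was at 50.5 CPM in KO and 41.1 CPM in WT (log2 fold change 0.30, SE 0.08, edgeR adjusted p = 0.112) and Atp6v0b at 63.7 CPM in KO and 50.6 CPM in WT (0.33, SE 0.09, edgeR adjusted p = 0.114), both subunits of the pump, and neither passed. The rabconnectin genes Dmxl2, at 2.77 TPM in KO and 2.68 TPM in WT, and Wdr7, at 3.59 TPM in KO and 3.803 TPM in WT, differed by less than 1 SD in liver. In IAT, where Rogdi had its largest difference, the median of 23 tested genes was -0.25, with 4 higher and 19 lower.

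**Figure D4:**
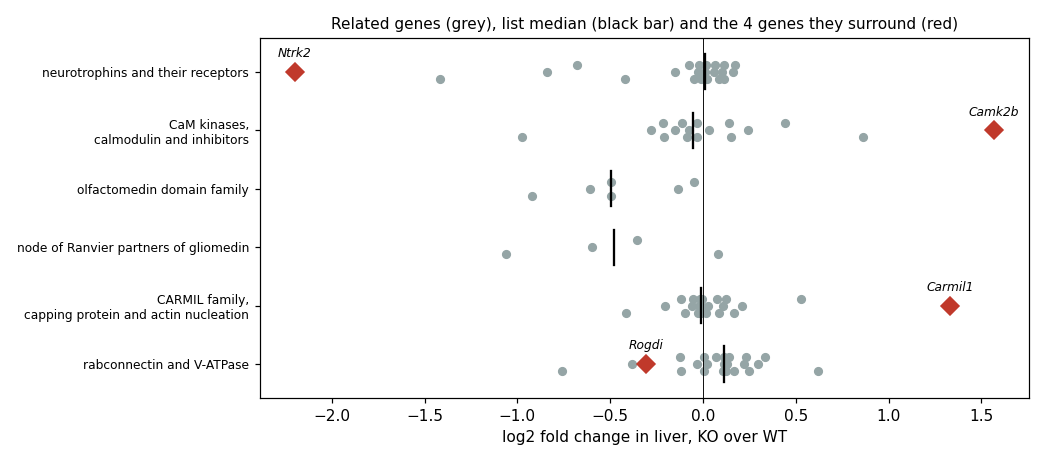
Log2 fold change of KO over WT in liver for the tested genes of 6 lists (grey points), with the median of each list as a black bar. Red diamonds mark Ntrk2, Camk2b, Carmil1 and Rogdi in the list they belong to; the list medians lie between -0.50 and 0.11, and Gldn is not drawn because its KO counts are 0.

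Like Ntrk2 and Gldn, liver markers of several cell types were lower in KO, and such lists went beyond the types described below. All 5 tested red blood cell genes, all 3 striatum genes and all 3 mammary epithelium genes were lower. So were 4 of 5 lymphocyte genes. Of 8 hepatocyte genes 6 were higher, as were 5 of 8 Kupffer cell genes and 4 of 8 endothelial genes. The cholangiocyte list, of bile duct cells, summed to 39.4, 41.2 and 37.2 CPM over its 8 genes in KO liver, against 83.2, 112 and 93.5 CPM in WT liver. Most of these sums was Spp1 alone, at 32.4, 35.4 and 29.4 CPM in KO and 72.8, 100 and 82.9 CPM in WT. All 6 tested members were lower in KO and 2 fell by edgeR: Spp1, encoding osteopontin, at 32.4 CPM in KO and 85.4 CPM in WT (log2 fold change -1.40, SE 0.13, edgeR adjusted p = 0.00106), and Epcam, an epithelial adhesion gene (-1.33, SE 0.24, edgeR adjusted p = 0.0410). The defining keratin gene Krt19 did not pass (-0.21, SE 0.32, edgeR adjusted p = 0.805). A list of 8 mesothelial genes, of the cells that line the liver surface, was added after seeing the data, and it summed to 9.68, 7.53 and 4.80 CPM in KO, against 19.4, 25.4 and 14.9 CPM in WT. All 6 tested members were lower and 1 fell: Upk3b, a mesothelial uroplakin gene, at 1.20, 0.977 and 0.339 CPM in KO, against 4.33, 6.09 and 2.97 CPM in WT (-2.41, SE 0.41, edgeR adjusted p = 0.0311). Krt19 is on both lists, and none of the genes of either list was at 0 in all libraries of a group.

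The hepatic stellate list summed to 177, 341 and 234 CPM in KO and 310, 433 and 361 CPM in WT, with 8 of 8 genes lower, a median of -0.54 and 0 called by edgeR. The hepatocyte list summed to 132951 to 157890 CPM in KO and to 129340 to 161559 CPM in WT, which fits the label of the tissue, and the endothelial and Kupffer cell lists also overlapped between genotypes. Of the Schwann cell list only 2 of 8 genes passed the filter, and its defining gene Sox10 was at 0 in all 6 liver libraries. Among the WT liver libraries, Ntrk2 was highest in replicate 1, where the cholangiocyte and stellate sums were lowest. It was lowest in replicate 3, where the mesothelial sum was lowest. Gldn was highest in WT replicate 2, where the cholangiocyte, stellate and mesothelial sums were highest. That Gldn order rests on counts of 11, 19 and 10. The part of these cell types in the Ntrk2 and Gldn values was not tested. Camk2b and Carmil1 were higher in KO liver, opposite in direction to the cholangiocyte, mesothelial and stellate lists.

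**Figure D5:**
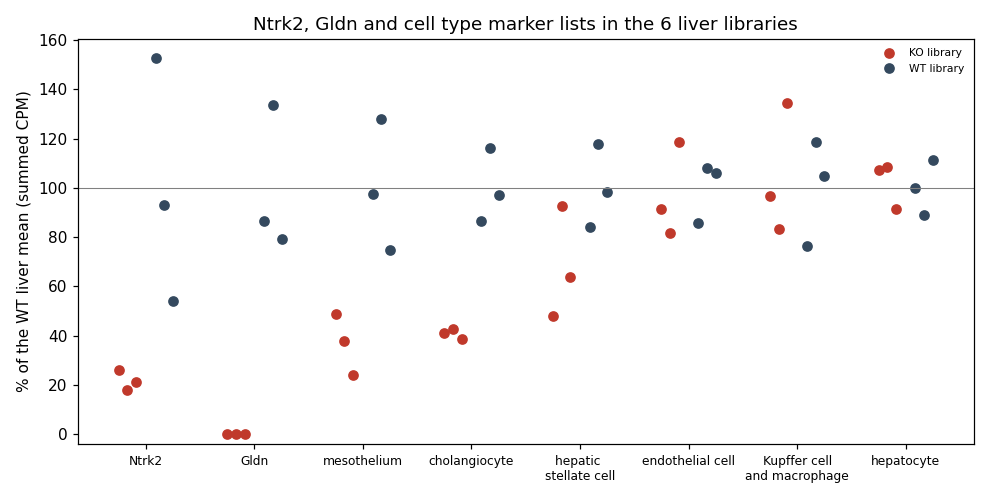
Ntrk2, Gldn and the summed CPM of 6 marker lists in each liver library, as a percentage of the WT mean, with KO left of WT. KO libraries lie below all WT libraries for Ntrk2, Gldn, mesothelium and cholangiocytes, and Spp1 makes up most of the cholangiocyte sum. Stellate cell values overlap by 1 KO library, and the endothelial, Kupffer cell and hepatocyte lists overlap widely.

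By the overall pattern over 24 libraries, the genes nearest to each member were found by the root mean square difference of gene-centred log2 CPM among 16169 genes. For Ntrk2 they were Limch1 (0.59), Ndn (0.61) and Pfkp (0.63), where the median over all genes was 2.49. For Gldn they were Nes (0.80), Tspan15 (0.84) and Smoc2 (0.84), against a median of 1.74, so Gldn had no close match. For Camk2b they were Akap5 (0.72), Olig1 (0.92) and Ptgds (1.02), for Carmil1 Spin1 (0.42), Grb2 (0.43) and Zfp605 (0.43), and for Rogdi Wdr37 (0.25), Herc1 (0.27) and Spata2 (0.27). The liver libraries were among the 24, so the liver values of these genes are given with no test. Smoc2, a matricellular protein gene, was at 4.13 CPM in KO liver and 12.8 CPM in WT liver (log2 fold change -1.63, SE 0.31).

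Within 1 Mb of each member, edgeR called 0 of 13 tested genes around Ntrk2, 0 of 19 around Gldn, 0 of 27 around Camk2b, 0 of 20 around Carmil1 and 0 of 25 around Rogdi. With 1.11% of all tested genes called in liver, counts of this size are near the background. Beside Ntrk2 lie Rmi1 (log2 fold change -0.22, SE 0.10) and Agtpbp1 (0.41, SE 0.10), beside Gldn Rab39 (0.49, SE 0.36) and Dmxl2 (0.13, SE 0.12), and beside Camk2b Ykt6 (0.18, SE 0.09) and Nudcd3 (-0.13, SE 0.10). Beside Carmil1 lie Slc17a4 (-0.49, SE 0.10, edgeR adjusted p = 0.0738) and Cmah (0.38, SE 0.12), and beside Rogdi Smim22 (0.11, SE 0.33) and Glyr1 (-0.07, SE 0.07). Glyr1, whose span ends 328 bases from Rogdi, also had a log2 fold change of -0.02 (SE 0.12) in IAT. Annotated antisense genes overlap Ntrk2, Gldn and Rogdi, and the sources used here do not say whether strand was counted, so reads of such partners cannot be told apart.

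Among the other genes called in KO liver, 71 rose and 66 fell in all, Ntrk2, Gldn, Camk2b and Carmil1 included. Prxl2a, the 5 genes described here and symbols that start with LOC, a digit, or Gm and a digit were left out. Of the rest with a mean of at least 5 CPM, the largest falls began with Cyp2a22, at 3.51 CPM in KO and 106 CPM in WT. Sult2a2, at 20.9 CPM in KO and 409 CPM in WT, Lamc3, Ifi27l2b and Spp1 followed. The largest rises were Slco1a1, at 221 CPM in KO and 47.7 CPM in WT, Mup11, Pik3c3, Nnt and Plin4. At the threshold, the last gene called was Plin4 (log2 fold change 1.49, SE 0.28) and the first not called Srp54b (-0.64, SE 0.12). By absolute fold change Ntrk2 stood 29th, Camk2b 53rd and Carmil1 64th of the 137 called genes. Gldn is given no rank, because with KO counts of 0 its fold change has no measured size. The liver contrast chose these genes, so the ranks are a description.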

How the data were processed

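The authors deposited 1 table that holds, for every gene and library, expected counts without normalization and TPM, which are scaled to each library, per the file headers. For the alignment and quantification, the submitters' processing notes list RSEM 1.3.1, Bowtie2 2.3.4.3, DESeq2 1.4.5 and the build GRCm38.p6, with no role or order. The sources used here give neither the annotation nor the strand setting. A further 48 per-sample columns were not used. Expected counts were rounded. Each tissue was fitted on its 6 libraries with edgeR 4.0.16 in R 4.3.3 (TMM, filterByExpr, quasi-likelihood F-test, Benjamini-Hochberg under 0.05 over all tested genes), and SEs were taken from the F statistic. The 12 WT libraries were fitted together for tissue differences, tested for Ntrk2 and Camk2b alone, and all 24 for the interaction. CPM were TMM-normalised within tissue. The fits were tested on simulated data.

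The members, lists, tests and naming rule were chosen with earlier results of these data known. Named genes were the members, up to 3 called genes per list or otherwise the 2 with the smallest p in liver, 3 nearest patterns, the adjacent tested genes, the 5 largest liver changes each way, and defining markers. Those largest changes were taken within the symbol and CPM limits given above. Other genes named for their level alone (Bdnf, Ntrk3, kinase subunits, Nrcam, Nfasc, Carmil2, Dmxl2, Wdr7) and Smoc2 were chosen after their values were seen. A result that the naming rule would add is not reported here.

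Replicates correlated at 0.929 to 0.996 (Pearson, log2 CPM across genes), and none matched within sampling noise. The design text gives 3 mice per genotype and does not tie libraries to mice, so p-values measure the spread between these samples. Gene identifiers matched RefSeq for 18958 of 19015 genes. Alternatives were RLE normalization, 2 other filters, DESeq2 1.42.0, limma 3.58.1 (voom, and limma-trend after adding a pseudocount of 1 or 0.1 to TPM before the log2), 1 fit of all libraries, a replicate block and leaving out libraries. The mesothelial list and the joint removals of IAT libraries were added after seeing the data.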

Additional observations from a re-analysis of the deposited data

Results flagged for a closer look

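Gldn and Rogdi lay on opposite sides in different tissues, with every KO library beyond every WT library each time. Gldn had a log2 fold change of 0.84 in BAT, with KO above WT, while in liver it was at 0 in all KO libraries and averaged 0.733 CPM in WT. Rogdi had 1.08 in IAT, with KO above WT, and -0.30 in liver, with KO below WT. Such separation was common, at 25.6% of all tested genes in BAT, 21.6% in liver and 18.5% in IAT. The Gldn difference in BAT and the Rogdi difference in liver were each called in 0 of 15 alternatives. Both genes were chosen for a difference between tissues, so that difference was not tested independently here. IAT KO replicates 1 and 3 also carried the lymphocyte markers given above.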

How the results depend on the processing

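In liver, 137 genes were called, against 218 with no filter on low counts, 402 with DESeq2, 228 with the replicate block and 58 to 103 without 1 library. In BAT, 68 were called, against 467 with DESeq2, 1 with the replicate block, 29 and 28 on TPM with a pseudocount of 1 and 0.1, 173 with all 24 libraries in 1 fit and 2 to 94 without 1 library. In brain, 7 were called, against 56 with DESeq2, 2 with limma-voom, 4 with the replicate block and 1 to 9 without 1 library. In IAT, 0 were called, against 987 with DESeq2, 7 with limma-voom, 2573 with all 24 libraries in 1 fit and 0 to 1760 without 1 library, the highest without KO replicate 2. For the difference between tissues, 68 were called, against 103 with RLE normalization and 24 with the replicate block. The cause of these changes was not tested. The labels do not say what a replicate number marks, and the KO and WT libraries of a number had deviations correlated between -0.24 and 0.39, so the replicate block is given as an alternative and whether the numbers pair the samples was not settled.

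In liver, Carmil1 was called in 15 of 15 alternatives (0.89 to 1.42), Camk2b in 14 of 15 (1.13 to 1.87), Ntrk2 in 8 of 15 (-2.49 to -1.06) and Rogdi in 0 of 15 (-0.40 to -0.24). Gldn was called in 6 of the 12 that gave a value. These alternatives reuse the libraries that chose the members. Their counts describe how the calls depend on the processing and add no support for a KO change. The Ntrk2 difference of WT BAT over WT IAT, 0.02, turned to -0.006 with RLE normalization and ran from -0.0658 to 0.1038 without 1 library. The Gldn difference of WT brain over WT IAT, -1.01, was -0.94 with the replicate block and -0.62 without WT IAT replicate 2. Gldn counts in liver, 40 over the WT libraries, limit what can be said of its size.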
